A study of Beta vulgaris subsp. vulgaris with 30 samples.

Results

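Within-group variable genes are genes whose transcript level differed several-fold between shoots that had received the same treatment. They were found from read counts scaled to the library's total (CPM, with every library set to a sum of 1000000). A gene was kept if, in at least 3 of the 5 groups, its highest library held at least 10 CPM and (highest + 1)/(lowest + 1) was at least 8. The shallowest library, ethanol replicate 4, was left out of its group for this choice. The rule kept 58 of the 21587 genes counted, or 0.269%. They had been labelled on or off genes, but only 8 of the 58 had 2 clearly separated levels, so the name used here follows the rule. The genes were thus chosen by their measured spread within groups, so that spread is described below and not tested.

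The series compared messenger RNA of sugar beet shoots before and after a pretreatment and a freezing treatment, with 6 libraries in each of 5 groups. The first group was sampled before pretreatment, the second after 3 days in water and the third after 3 days in ethanol. The other groups received one of these pretreatments and were then frozen, and are called water-frozen and ethanol-frozen, with 2 h given in their treatment names. The series description gives seedlings 7 days old, an ethanol solution of 80 mM and freezing overnight at -2.1 to -3.5 °C. The protocols of the single samples instead describe Arabidopsis, 20 mM ethanol, 6 days and -4.0 °C. All groups share the species, the tissue and growth in pots of soil. The labels name no variety or line, and do not say whether a library holds 1 seedling or a pool. The shoot label could not be checked against marker genes, since the identifiers carry no gene names.

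A transcript that is abundant in one plant and nearly absent in the next is a familiar sight in plant RNA-seq. Such transcripts are known from genes that are missing or silenced in some lines, from alleles that differ in strength and from genes that a local stimulus switches on. Which of these holds for any gene below was not tested. In bulk shoots, fewer cells of a type and less RNA per cell cannot be told apart.

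Total counts ran from 3379082 to 17868082 per library, so that 3 reads, the limit that a count of 0 allows, stood for 0.168 to 0.888 CPM. This limit covers counting error only, since reads are not molecules. The 58 genes held 0.146 to 0.543% of a library's counts. Of their 1740 values, 5.98% were 0, and 26 of the 58 genes had no read in at least 1 library. The numbers of genes meeting the spread limit were 42 of the 58 in the group before pretreatment, 45 after water, 33 after ethanol (5 libraries), 49 in water-frozen shoots and 46 in ethanol-frozen shoots. In all 21587 genes the same limit was met by 200, 155, 94, 223 and 192 genes. The spread was present in all 5 groups for 11 genes, in exactly 4 for 19 and in exactly 3 for 28.

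**Figure D1:**
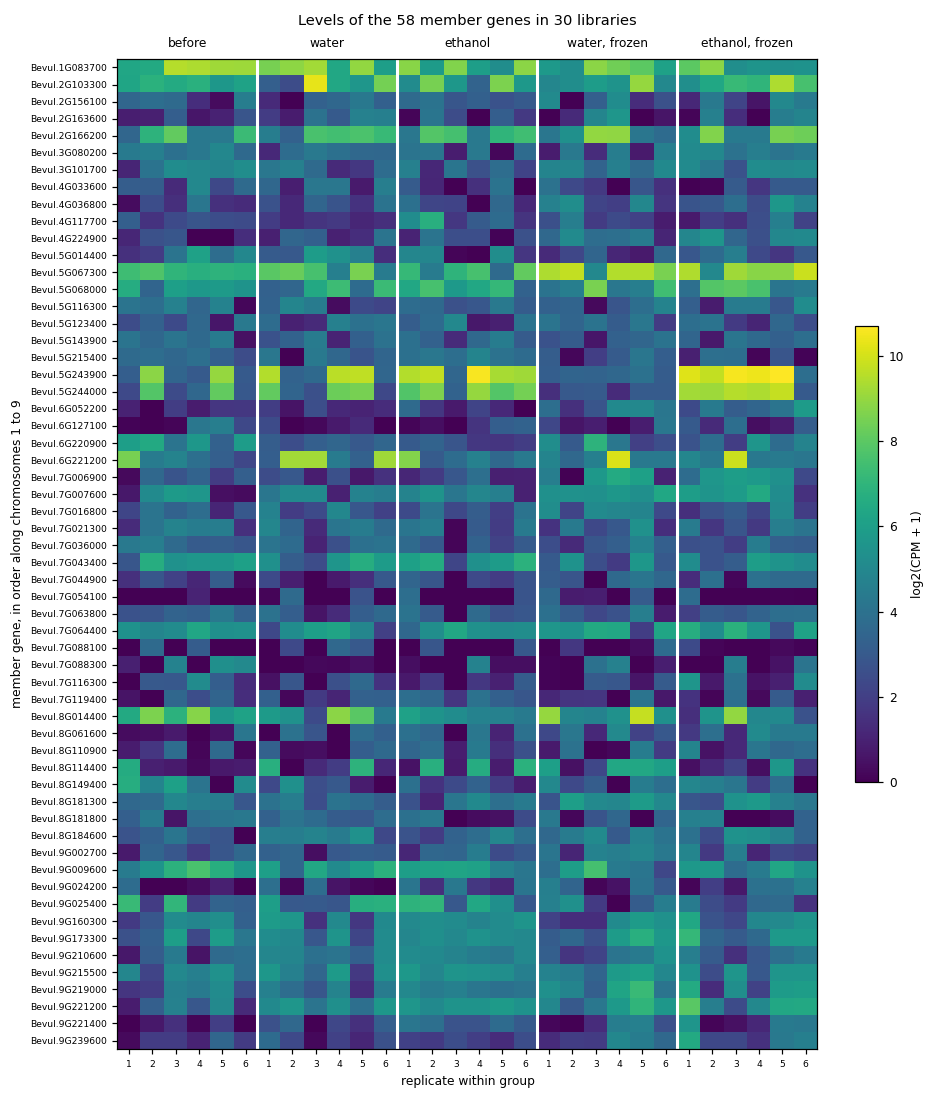
Levels of the 58 genes (rows, in order along the chromosomes) in the 30 libraries (columns, 6 replicates per group) as log2(CPM + 1) in colour. Light and dark cells stand side by side within every group, and several rows next to each other on chromosome 9 share their dark columns.

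Genes lay close to the limit of the rule on both sides. Just inside it lay Bevul.8G184600 (chromosome 8, 57159487 to 57159834), whose third-highest group ratio was 8.04, and Bevul.7G036000 (chromosome 7, 6169440 to 6170431), at 8.27. Just outside lay Bevul.2G123000 (chromosome 2, 37891112 to 37905891) at 7.93 and Bevul.7G161500 (chromosome 7, 51429271 to 51435541) at 7.73. Coordinates are those of the count table, on the beet assembly EL10.2.

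A gene was said to have 2 separated levels if the sorted values of log2(CPM + 1) in 29 libraries left an empty interval of at least 2, with at least 3 libraries on each side. This held for 8 of the 58 genes and for 2 of the 8461 other genes with a highest level of at least 10 CPM. Such an interval needs a wide range, which the rule required of the 58 and not of the others. This contrast therefore follows in part from the choice of genes and is a description. In the remaining 50 the values filled the range more evenly or left a narrower interval. Ethanol replicate 4 took no part in the choice of genes or intervals, and its value fell in the upper level for 7 of the 8 genes, in the lower for 1 and in the empty interval for 0.

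The widest interval belonged to a pair of direct neighbours on chromosome 5. Bevul.5G243900 (65696005 to 65696294, plus strand, 290 bp) stood at 15.1 CPM or below in 15 of the 30 libraries and at 463 CPM or above in the other 15. Bevul.5G244000 (65699448 to 65700019, plus strand, 572 bp) stood at 10.97 CPM or below and at 223 CPM or above. Both were high in the same numbers of libraries, 2 of 6 before pretreatment, 3 of 6 after water, 5 of 6 after ethanol, 0 of 6 in water-frozen shoots and 5 of 6 in ethanol-frozen shoots. The lowest, median and highest values of Bevul.5G243900 were 7.1, 9.22 and 510.3 CPM before pretreatment, 9.18, 359 and 815 CPM after water, 10.5, 673 and 1552 CPM after ethanol, 7.77, 9.69 and 15.1 CPM in water-frozen shoots, and 13.8, 1270.4 and 1673 CPM in ethanol-frozen shoots. Low libraries were not empty, since the smallest count of Bevul.5G243900 was 56 reads. The files pair neither gene with a name, and neither matched a RefSeq gene.

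Bevul.8G114400 (chromosome 8, 41580752 to 41582891) had a lower level near the counting limit. RefSeq lists the gene at this position, LOC104901615, as a pseudogene, a gene copy that is taken not to give a working protein. It held 3.89 CPM or less in 19 libraries, including 0 reads in water replicate 2, and 50.1 CPM or more in 11. Before pretreatment 1 of 6 libraries was high, at 95.6 CPM against a median of 0.736 CPM. Upper values were met in 2 of 6 libraries after water (highest 119.3 CPM), 3 of 6 after ethanol (highest 113.002 CPM), 4 of 6 in water-frozen shoots (highest 85.3 CPM) and 1 of 6 in ethanol-frozen shoots (50.1 CPM). The groups overlapped throughout, and no comparison called this gene with all libraries in the fit. Between ethanol and the state before, it was called without replicate 1 before pretreatment, the high library there (log2 6.32, edgeR adjusted p = 0.0392, against log2 1.46 and 0.716 with it). Between ethanol-frozen and ethanol shoots it was called without ethanol-frozen replicate 5, again the high library (log2 -5.41, edgeR adjusted p = 0.0354, against log2 -2.54 and 0.301 with it).

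Bevul.6G221200 (chromosome 6, 68268829 to 68269814, matched to LOC104897761) was high in few libraries. It held 29.2 CPM or less in 23 of 30 libraries and 360.1 CPM or more in 7. The high libraries were 1 of 6 before pretreatment (360.1 CPM), 3 of 6 after water (highest 603 CPM), 1 of 6 after ethanol (417 CPM), 1 of 6 in water-frozen shoots (1103 CPM) and 1 of 6 in ethanol-frozen shoots (923 CPM). Group medians outside the water group lay between 16.1 and 21.5 CPM. Its low libraries were not empty, since the smallest count of Bevul.6G221200 was 30 reads. Bevul.7G088300 (chromosome 7, 24845320 to 24846141) was also high in few libraries, but its lower level was near 0. It had 12 libraries at 0 reads and 8 at 14.99 CPM or more. Its high libraries numbered 3 of 6 before pretreatment, 0 of 6 after water, 1 of 6 after ethanol and 2 of 6 in each frozen group.

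For the other 3 genes with separated levels the upper level was the common one. Bevul.7G007600 (chromosome 7, 944811 to 945544) was high in 24 of 30 libraries, at 17.2 CPM or more, and stood at 1.9 CPM or less in the rest. It was high in all 6 libraries in water-frozen shoots, where it ran from 39.4 to 81.2 CPM, and low in 3 of 6 before pretreatment. Bevul.3G080200 (chromosome 3, 10239029 to 10240684) was also high in 24 libraries, with 11.04 CPM or more against 1.55 CPM or less, and was low in 3 of 6 libraries in water-frozen shoots. Bevul.7G043400 (chromosome 7, 7706318 to 7709101) was high in 20 libraries, at 35.9 CPM or more against 7.94 CPM or less, and in 2 of 6 in water-frozen shoots.

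**Figure D2:**
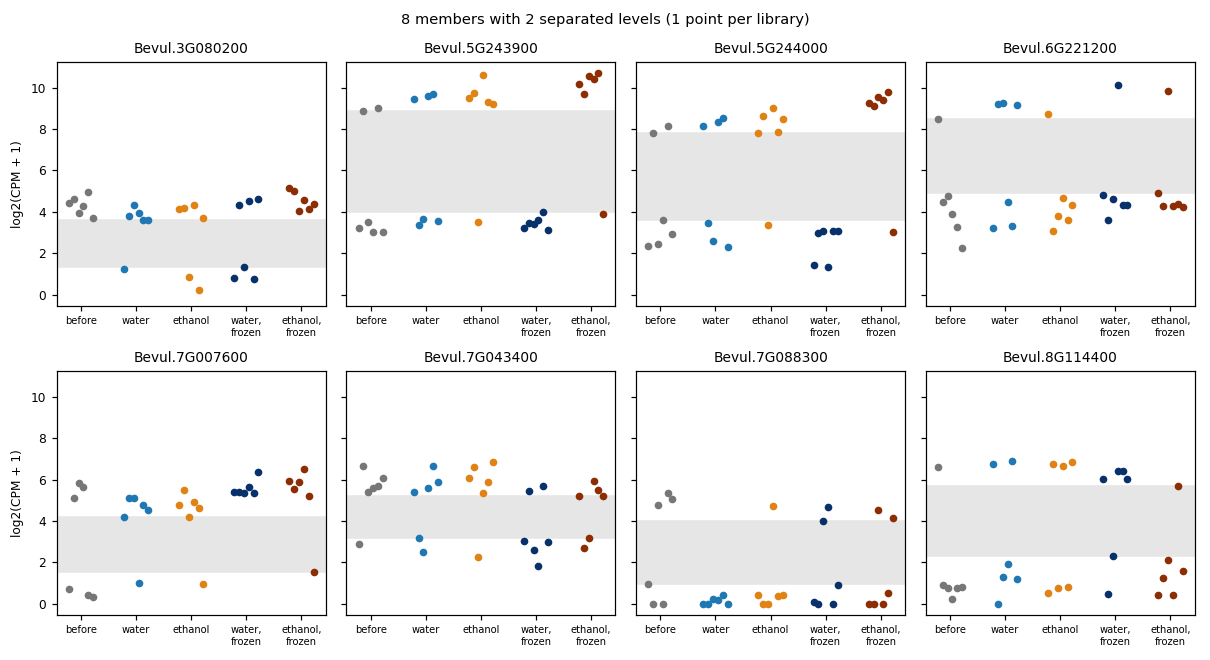
Levels of the 8 genes with separated levels, as log2(CPM + 1) on a shared axis, with 1 point per library, groups side by side and the empty interval shaded. Bevul.5G243900 and Bevul.5G244000 are low in all 6 libraries in water-frozen shoots, and every other group of every gene except Bevul.3G080200 before pretreatment and in ethanol-frozen shoots, Bevul.7G007600 in water-frozen shoots and Bevul.7G088300 after water holds points on both sides.

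Among the 11 genes that met the spread limit in all 5 groups, Bevul.8G114400 and Bevul.6G221200 had the widest mean range within groups, 6.16 and 6.01 on the log2(CPM + 1) scale. Next came Bevul.8G149400 (chromosome 8, 51501547 to 51504704) with 5.01. Its lowest, median and highest values were 0, 31.1 and 100.3 CPM before pretreatment, 0, 4.53 and 40.7 CPM after water, and 0.823, 3.46 and 14.6 CPM after ethanol. In water-frozen shoots they were 0, 10.7 and 30.96 CPM, and in ethanol-frozen shoots 0, 15.3 and 29.6 CPM. Values of this gene spread over the whole range, with no wide empty interval, and all groups overlapped. The remaining members of this list down to the tenth were Bevul.2G166200, Bevul.5G068000, Bevul.8G061600, Bevul.9G024200, Bevul.7G043400, Bevul.8G110900 and Bevul.5G143900, with mean ranges from 3.49 to 4.44.

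By mean level over all libraries, which is not a comparison per length, the most abundant were Bevul.5G243900 at 476 CPM, Bevul.5G067300 at 308 CPM, Bevul.1G083700 at 279 CPM, Bevul.5G244000 at 225 CPM and Bevul.2G103300 at 172 CPM. Bevul.1G083700 (chromosome 1, 41426763 to 41433717, LOC104905914) had group medians of 579 CPM before pretreatment, 419 CPM after water, 234 CPM after ethanol, 165 CPM in water-frozen shoots and 44.01 CPM in ethanol-frozen shoots. Its lowest library stood between 36.7 and 79.9 CPM in every group and its highest between 454 and 741 CPM. The groups overlapped, and no comparison called the gene. Bevul.2G103300 (chromosome 2, 31145107 to 31147771), which overlaps a neighbouring gene so that its counts are uncertain, was at 49.8 to 114.7 CPM in the group before pretreatment, where it did not meet the limit, and at 4.59 to 1283 CPM after water.

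The rule used neither position nor which libraries were high or low. It did use the size of the spread within groups, on which the correlations below are computed. Chromosome 7 held 14 of the 58 genes (24.1%, against 10.8% of all genes) and chromosome 9 held 12 (20.7%, against 11.1%). Chromosome 1 held 1 gene (1.72%, against 10.1%) and chromosome 3 held 2 (3.45%, against 10.9%). Only 6 of the 58 genes lay beside another with at most 1 gene between them, in 3 pairs. These were Bevul.5G243900 with Bevul.5G244000, Bevul.7G088100 with Bevul.7G088300, and Bevul.9G221200 with Bevul.9G221400.

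To see which genes were high in the same libraries, log2(CPM + 1) was taken relative to the group mean, which removes differences between groups, and Pearson's r was computed over 29 libraries without ethanol replicate 4. All correlations are descriptions of these libraries and share their depth and composition. Of the 1653 pairs among the 58 genes, 240 lay on 1 chromosome. An r of at least 0.5 in size was found in 30 of the 60 pairs with starts within 5 Mb, in 20 of the 75 pairs 5 to 20 Mb apart (26.7%), in 2 pairs over 20 Mb apart (1.90%) and in 22 of the 1413 pairs on different chromosomes (1.56%). In the same order the median size of r was 0.524, 0.230, 0.131 and 0.151. All 16 pairs with an r of at least 0.75 in size, a limit chosen after the values were seen, lay on 1 chromosome. The strongest was Bevul.5G243900 with Bevul.5G244000 at 0.973.

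**Figure D3:**
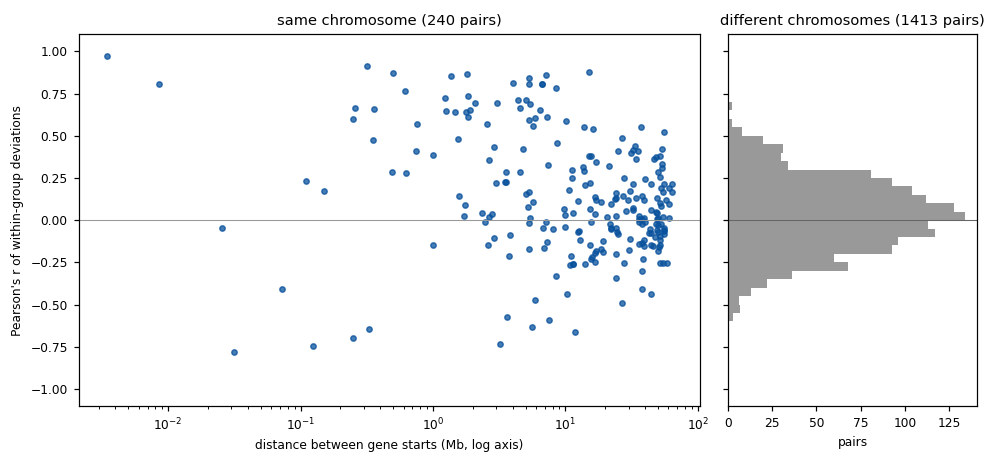
Pearson's r of within-group deviations over 29 libraries for pairs of the 58 genes, against the distance between gene starts for the 240 pairs on 1 chromosome (left, log axis) and as a histogram for the 1413 pairs on different chromosomes (right). Values of at least 0.75 in size, positive and negative, sit at distances under 20 Mb. Pairs on different chromosomes centre on 0 and run from -0.572 to 0.696.

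The 16 pairs joined 18 genes into 7 sets, each on a single chromosome. The largest set held 6 genes at the end of chromosome 9, between 47275879 and 55752342, a span of 8.48 Mb with 792 other entries of the count table between the outermost. They were Bevul.9G160300, Bevul.9G173300, Bevul.9G210600, Bevul.9G221200, Bevul.9G221400 and Bevul.9G239600, all matched to protein-coding RefSeq genes. Bevul.9G160300 overlaps a neighbouring gene, so its counts are uncertain. Libraries tended to be high or low in all 6 at once. This follows from how the set was built, by correlations in these same libraries, and is a description. All 6 genes lay above their group means in replicates 3 and 5 before pretreatment, replicates 1, 2 and 6 after water, replicates 4, 5 and 6 in water-frozen shoots, and replicates 1, 5 and 6 in ethanol-frozen shoots. None lay above in replicate 1 before pretreatment, replicates 3 and 5 after water, replicates 1, 2 and 3 in water-frozen shoots, or replicates 2 and 3 in ethanol-frozen shoots.

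After ethanol (5 libraries) the library medians of the 6 deviations lay between -0.08 and 0.15 on the log2 scale, against -1.75 to 1.59 before pretreatment. In these ethanol libraries the 6 genes had ratios of 1.32 to 2.76, below the limit of the rule. They were thus chosen through the spread of other groups, and this contrast is a description. Bevul.9G173300 (48650535 to 48651949) ran from 29.6 to 43.2 CPM after ethanol (median 32.9 CPM), but from 4.06 to 62.6 CPM before pretreatment (median 13.5 CPM) and from 3.71 to 45.1 CPM after water (median 32.8 CPM). In the frozen groups it ran from 5.11 to 105.99 CPM after water (median 30.4 CPM) and from 7.54 to 138 CPM after ethanol (median 31.96 CPM). Bevul.9G221200 (53918177 to 53918858) ran from 33.02 to 56.1 CPM after ethanol and from 0.776 to 32.2 CPM before pretreatment, 13.99 to 49.4 CPM after water, 7.03 to 126.96 CPM in water-frozen shoots and 4.4 to 249 CPM in ethanol-frozen shoots. The spread of the ethanol libraries was not compared with that of other groups by a test.

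**Figure D4:**
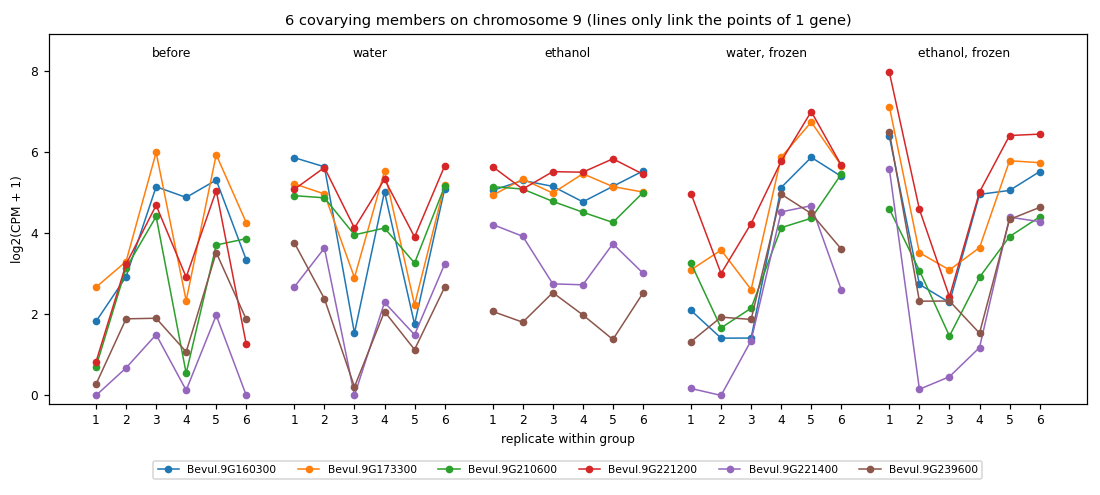
Levels of the 6 covarying genes of chromosome 9 as log2(CPM + 1) in each library, with 1 colour per gene and replicates side by side within the 5 groups. The lines, which only link the points of 1 gene, move up and down together in 4 groups and less so after ethanol, where Bevul.9G173300 ran from 29.6 to 43.2 CPM.

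A second set on the same chromosome end, Bevul.9G215500 (53168539 to 53175261) and Bevul.9G219000 (53669421 to 53673559), had an r of 0.871 and lay inside the span of the first. On chromosome 2, Bevul.2G163600 (46300117 to 46300851) and Bevul.2G166200 (46618481 to 46623209) had an r of 0.910 over 0.318 Mb. Bevul.2G166200 stood at 41.03 CPM or less in 14 libraries and at 119.99 CPM or more in 16, an empty interval of 1.53 on the log2(CPM + 1) scale. Its lowest and highest values were 10.5 and 284 CPM before pretreatment, 9.06 and 206 CPM after water, 18.1 and 230.1 CPM after ethanol, 12.4 and 507 CPM in water-frozen shoots, and 19.4 and 414 CPM in ethanol-frozen shoots. On chromosome 4, Bevul.4G033600 and Bevul.4G036800 had an r of 0.767 over 0.610 Mb. Far apart on chromosome 5, Bevul.5G116300 (26464868 to 26482567) and Bevul.5G143900 (41440846 to 41441703) had an r of 0.877 with starts 14.98 Mb apart, with 275 other genes between them.

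Some close neighbours were opposed. Bevul.8G181300 (chromosome 8, 56798606 to 56799156) and Bevul.8G181800 (56829955 to 56830580), 0.0313 Mb apart on the minus strand, had an r of -0.780. RefSeq lists the second, LOC104902074, as a pseudogene. Bevul.5G068000 and Bevul.5G067300, 0.123 Mb apart on chromosome 5, had an r of -0.747. Against all genes tested, the gene most opposed to Bevul.5G067300 was Bevul.5G066700 (10263420 to 10264900) at -0.857, and the gene most opposed to Bevul.2G166200 was Bevul.2G162400 (chromosome 2, 46112654 to 46121628) at -0.901. Bevul.5G067300 (10343060 to 10343464, 405 bp) ran from 107.3 to 214 CPM before pretreatment and fell outside the rule there. It ran from 20.7 to 379 CPM after water, 12.1 to 284 CPM after ethanol, 31.1 to 841 CPM in water-frozen shoots and 31.2 to 917 CPM in ethanol-frozen shoots.

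**Figure D5:**
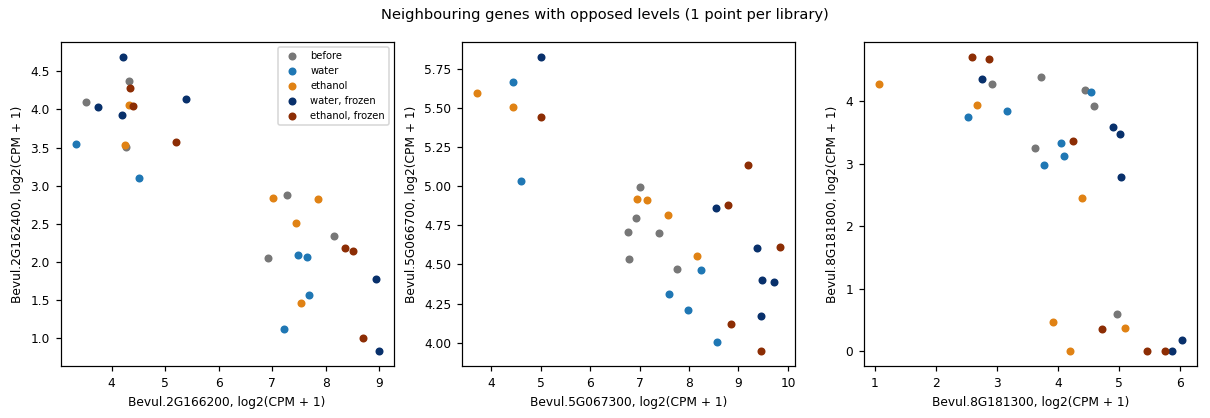
Levels of 3 pairs of neighbouring genes with opposed patterns as log2(CPM + 1), with 1 point per library coloured by group. The points slope downward, with exceptions among single libraries, for Bevul.2G166200 with Bevul.2G162400 (r = -0.901 after removing group means), Bevul.5G067300 with Bevul.5G066700 (-0.857) and Bevul.8G181300 with Bevul.8G181800 (-0.780).

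The same question was put to all 14128 genes tested, by asking for each gene which other gene was most like it. The most similar gene lay on the same chromosome for 37 of the 58 (63.8%), against 1309 of the 8451 other genes with a highest level of at least 10 CPM (15.5%). That comparison set was not matched on spread within groups, by which the 58 were chosen. How far the spread accounts for the difference was not tested. It started within 1 Mb for 19 of the 58 (32.8%, against 2.69%) and within 5 Mb for 27 (46.6%, against 5.44%). Genes outside the rule made up 26 of the 37 partners on the same chromosome, so the shared pattern was not limited to the 58. The most opposed gene lay on the same chromosome for 30 of the 58 (51.7%, against 13.4%). Of the 22 genes whose best r was at least 0.8, 21 had the partner on their own chromosome. The matching share among other genes was not counted, so this is not shown to be a trait of the 58.

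Partners were less close for the 3 widest-ranging of the 11 genes with the spread in all 5 groups. The most similar genes to Bevul.8G114400 were Bevul.7G112300, Bevul.8G166300 and Bevul.6G182400, with r from 0.621 to 0.698, and those of Bevul.6G221200 were Bevul.7G075900, Bevul.2G099600 and Bevul.7G127100, with r from 0.660 to 0.682. For Bevul.8G149400 they were Bevul.8G149900, which starts 0.0794 Mb away, Bevul.7G174100 and Bevul.1G025600, with r from 0.605 to 0.677. These values are below the median best r of all other genes with a highest level of at least 10 CPM, which was 0.730. In contrast, Bevul.5G068000 (10466164 to 10466580) had an r of 0.963 with Bevul.5G067700, which starts 0.0172 Mb away, and Bevul.3G101700 (14078373 to 14079374) had 0.822 with Bevul.3G101600, 0.0156 Mb away. Both partners have the same length as the member, 417 and 1002 bp. Near-identical copies may share reads, so these counts are uncertain.

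Gene models of the 58 were short. The median span was 2051.5 bp, against 4428 bp for the 8461 other genes with a highest level of at least 10 CPM, and 18 spanned under 1000 bp (31.0%, against 9.92%). RefSeq had a gene at the same position for 41 of the 58 (70.7%, against 88.1%). Of these 41, 35 were protein-coding, 3 were long non-coding RNAs and 3 were pseudogenes, so that the last classes made up 14.6% of the matched genes, against 0.710% in the comparison set. The long non-coding RNAs were Bevul.7G044900, Bevul.7G054100 and Bevul.7G088100, and the third pseudogene was Bevul.9G002700. Mean levels were alike, with a median of 14.3 CPM in the 58 and 14.9 CPM in the comparison set. RefSeq symbols of the matched genes are locus numbers throughout, and 3 of the 58 overlap a neighbouring gene.

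Treatment was then asked about in the same genes, by edgeR's quasi-likelihood test on all 14128 genes that passed the low-count filter, with Benjamini-Hochberg adjustment over all of them. All 58 passed the filter. Their spread enters the test and makes them hard to call. Their median standard error of a log2 change was 0.784 between water with and without freezing, against 0.435 over all genes tested. The choice also bears on the calls, since several called genes met the spread limit only in the higher of the compared groups. Bevul.6G220900 had a ratio of 9.27 before pretreatment and 2.04 after water, and Bevul.7G088300 had 40.6 and 1.35. Bevul.5G243900 had 80.2 after water and 1.84 in water-frozen shoots, whereas Bevul.4G117700 met the limit in both ethanol groups. Such calls rest in part on the values that chose the genes. The labels name no separate cultures, so the p-values cover the spread among these libraries, which may be technical.

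Freezing after water changed 4 of the 58 genes (6.90%), against 11.1% of all genes tested. Bevul.7G006900 (chromosome 7, 834614 to 836281, LOC125499641) rose from 3.31 ± 2.56 to 39.4 ± 37.7 CPM (mean ± SD, n = 6 each). The log2 change was 3.34 ± 0.87 (SE) (edgeR adjusted p = 0.00765). The frozen libraries ran from 0 to 93.6 CPM (median 37.4 CPM) and the unfrozen ones from 0.63 to 6.83 CPM (median 3.22 CPM), so the groups overlapped through the low frozen libraries. Bevul.6G052200 (chromosome 6, 7990065 to 7992259, LOC104895426) rose from 2.04 ± 1.60 to 17.1 ± 12.8 CPM, by log2 2.90 ± 0.77 (edgeR adjusted p = 0.00915). Its unfrozen libraries ran from 0.496 to 4.91 CPM and the frozen ones from 1.79 to 33.3 CPM. Bevul.5G243900 fell from 387 ± 414 to 10.25 ± 2.66 CPM (log2 -5.40 ± 1.21, edgeR adjusted p = 0.00177) and Bevul.5G244000 from 165 ± 176 to 5.39 ± 2.94 CPM (log2 -5.10 ± 1.15, edgeR adjusted p = 0.00188). For this pair the water libraries were 3 high and 3 low, and the frozen ones all low, so the groups overlapped through low water libraries. All 3 of these lay within the frozen range for Bevul.5G243900. For Bevul.5G244000 the values of 5.06 and 3.98 CPM did, and water replicate 2, at 9.93 CPM, stood above the highest frozen library at 7.52 CPM. Over the 58 genes the median log2 change was 0.22, with 33 above 0, and over all genes tested it was 0.08. Without frozen water replicate 5, 7 of the 58 passed, the others being Bevul.2G103300, Bevul.6G220900 and Bevul.7G088300. The share of all genes called in that fit is not given here.

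Between ethanol with and without freezing, 5 of the 58 were called (8.62%), against 12.3% of all genes tested. The ethanol and water comparisons use separate libraries, and 2 genes were called in both. Both genes met the spread limit in each frozen group and not after water. Their repeated calls thus rest in part on the values that chose them. Bevul.7G006900 had ratios of 4.80 after water, 94.6 in water-frozen, 3.94 after ethanol and 12.1 in ethanol-frozen shoots. In the same order, Bevul.6G052200 had 3.95, 12.3, 12.9 and 10.9. Bevul.7G006900 rose from 4.36 ± 5.15 to 36.5 ± 22.8 CPM (n = 6 each), by log2 3.08 ± 0.88 (edgeR adjusted p = 0.0147), and stood at 6.30 ± 4.21 CPM before pretreatment. Its ethanol libraries ran from 0.915 to 13.9 CPM and the ethanol-frozen ones from 4.08 to 60.4 CPM, so the groups overlapped. Of the 5 it was the one whose call held in all 17 alternatives, with adjusted p values from 0.00335 to 0.0417. Bevul.6G052200 rose from 3.31 ± 4.4 to 19.2 ± 19.3 CPM, by log2 2.44 ± 0.75 (edgeR adjusted p = 0.0254), with 0 to 11.9 CPM unfrozen and 4.34 to 56.96 CPM frozen. Leaving out ethanol replicate 2, 3 or 5 (adjusted p 0.0533, 0.0623 and 0.0608) ended that call, as did leaving out frozen ethanol replicate 6 (0.141), within a range of 0.00184 to 0.141.

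The remaining 3 calls were each lost in some alternatives. Bevul.9G239600 (chromosome 9, 55746507 to 55752342, LOC104904993), of the chromosome 9 set, rose from 3.30 ± 1.26 to 23.7 ± 33.3 CPM (log2 2.64 ± 0.82, edgeR adjusted p = 0.0265). Its frozen ethanol libraries ran from 1.9 to 88.98 CPM, and without the highest of them, replicate 1, the log2 change was 1.53 with an adjusted p of 0.248. It was also lost without ethanol replicates 1, 2, 4 and 5 (0.0501, 0.0542, 0.0507 and 0.0610) and, at 0.169, with the replicate number as a block, within a range of 0.0140 to 0.248. Bevul.9G025400 (chromosome 9, 4256582 to 4259009, LOC125493175) fell from 64.7 ± 55.4 to 8.85 ± 7.24 CPM (log2 -2.999 ± 0.98, edgeR adjusted p = 0.0374). Its ethanol libraries ran from 6.64 to 133 CPM and the frozen ones from 1.9 to 20.7 CPM. Leaving out a library ended the call for ethanol replicates 1, 2 and 4 (0.0732, 0.0868 and 0.0522) and frozen ethanol replicates 2 to 6 (0.0730, 0.0802, 0.0608, 0.0532 and 0.0799), within a range of 0.00444 to 0.0868. In those 8 fits the log2 change stayed between -2.63 and -3.14, close to the value with all libraries.

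Bevul.4G117700 (chromosome 4, 38097742 to 38116287, LOC104905728) fell from 27.6 ± 40.3 to 6.20 ± 8.60 CPM in ethanol-frozen shoots (log2 -2.24 ± 0.75, edgeR adjusted p = 0.0452). Its ethanol libraries ran from 2.09 to 105.9 CPM with a median of 9.91 CPM, and its water libraries from 1.19 to 2.74 CPM. Without ethanol replicate 2, the library at 105.9 CPM, the log2 change was -1.003 with an adjusted p of 0.466. It was lost as well without ethanol replicate 1 (0.0718), without frozen ethanol replicates 1, 2, 3, 4 and 6 (0.0958, 0.0911, 0.0972, 0.0885 and 0.0918) or in a fit restricted to both groups (0.0940), and with the replicate block (0.212), within a range of 0.00182 to 0.466. The number of genes called among the 58 was 2 without ethanol replicates 1 or 2 or frozen ethanol replicate 6, and 3 without ethanol replicates 4 or 5 or frozen ethanol replicates 3 or 4. It was 6 without ethanol replicate 6 and without the low-count filter, with Bevul.5G067300 added in both, and 6 in the fit restricted to both groups, where Bevul.4G224900 and Bevul.9G210600 were added and Bevul.4G117700 was lost. Calls gained in other alternatives were Bevul.4G224900 without ethanol replicate 2 and with the replicate block, and Bevul.7G054100, Bevul.5G067300 and Bevul.8G114400 without frozen ethanol replicates 1, 2 and 5 in turn. Over the 58 the median log2 change was 0.35, with 37 above 0, and over all genes tested it was 0.09.

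Ethanol against water in frozen shoots called 2 of the 58 (3.45%), against 0.106% of all genes tested. Both were the neighbours of chromosome 5, which share their pattern and do not count as separate observations. The pair met the spread limit in ethanol-frozen shoots and not in water-frozen shoots. In that order the ratios were 113.2 and 1.84 for Bevul.5G243900, and 107.958 and 3.397 for Bevul.5G244000. Both calls, and the share of 3.45%, thus rest in part on the values that chose the genes. Bevul.5G244000 held 576 ± 301 CPM in ethanol-frozen shoots and 5.39 ± 2.94 CPM in water-frozen shoots (n = 6 each; log2 6.73 ± 1.23, edgeR adjusted p = 0.0103), and Bevul.5G243900 differed by log2 6.73 ± 1.29 (edgeR adjusted p = 0.0132). Frozen ethanol replicate 6 stood at the low level, 7.17 CPM for Bevul.5G244000, within the range of the water libraries. The call of Bevul.5G243900 was lost without frozen water replicate 6 (adjusted p = 0.0624), and the highest value for Bevul.5G244000 over the 17 alternatives was 0.0477. Both levels of the pair were present in the other 3 groups as well. The difference in the freezing response between ethanol and water called 0 of the 58, as in all genes tested (0%). At an unadjusted p under 0.05 there were 4 of the 58 (6.90%) and 406 of all genes (2.87%). DESeq2 called 0 of the 58, and its share of all genes is not given here.

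Before freezing, ethanol against water called 0 of the 58 genes by edgeR, against 0.00708% of all genes tested. At an unadjusted p under 0.05 there were 2 of the 58 (3.45%) and 558 of all genes (3.95%). DESeq2 called 1 of the 58, Bevul.4G117700. The share of all genes that DESeq2 called is not given here, so this count cannot be set against it. Its ethanol libraries stood at 105.9, 35.7, 12.4, 7.40, 2.34 and 2.09 CPM, of which the first 4 were above the highest water library at 2.74 CPM. This DESeq2 call was not refitted without single libraries.

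Over the pretreatment days, 2 of the 58 fell in water (3.45%, against 3.09% of all genes tested called in either direction). Bevul.6G220900 (chromosome 6, 68243509 to 68244975, LOC130589338) fell from 48.02 ± 30.7 to 8.20 ± 2.26 CPM (n = 6 each), by log2 -2.68 ± 0.66 (edgeR adjusted p = 0.0142). It ran from 8.91 to 90.9 CPM before pretreatment and from 4.72 to 10.6 CPM after water, and the call held in all 17 alternatives. In ethanol it fell to 5.05 ± 3.08 CPM, by log2 -3.39 ± 0.68 (edgeR adjusted p = 0.00235), and was the 1 gene of the 58 called there (1.72%, against 3.77% of all genes tested). Both comparisons share the libraries taken before pretreatment. When only the compared groups were fitted, Bevul.8G014400, Bevul.8G149400 and Bevul.9G221400 were called in ethanol too. Without replicate 1 before pretreatment 3 genes were called, Bevul.8G114400 and Bevul.9G024200 being added. There were 2 without replicate 5 (Bevul.8G149400 added) or 6 (Bevul.8G061600) before pretreatment or without ethanol replicate 4 (Bevul.7G088300).

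The other gene that fell in water was Bevul.7G088300, with 16.4 ± 18.1 CPM before pretreatment and 0.108 ± 0.139 CPM after water, a difference of log2 -7.03 ± 1.95 (edgeR adjusted p = 0.0359). Its values before pretreatment ran from 0 to 39.6 CPM, 3 of 6 libraries being low, so the groups overlapped. Leaving out one of replicates 3, 5 and 6 of the first group ended the call (adjusted p 0.0542, 0.0613 and 0.0616), as did leaving out any water replicate (0.0798, 0.0762, 0.0618, 0.0784, 0.0616 and 0.0743), within a range of 0.0171 to 0.0798. Of the 58 genes, 30 had a log2 change above 0 in water and 30 in ethanol, with medians of 0.02 and 0.16, against -0.01 and -0.01 over all genes tested.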

How the data were processed

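RNA from shoots was sequenced in 30 libraries, made with Lasy-Seq from 200 ng of total RNA each, per the labels' protocols. The submitters' processing notes list HISAT2, featureCounts, Trimmomatic, DESeq2 and bcl2fastq without versions, and name the build TAIR10, whereas the identifiers and chromosomes per the file headers are those of beet EL10.2. The deposited table holds whole read counts, and the length column equals the gene span in all 21587 rows. In a second table the authors deposited a scaled signal. Each library's values there are its counts over a constant, to within 1.18e-09 in relative terms, and they were used no further. The sources used here do not say whether counting used strand. Groups came from the treatment labels, and columns from the sample descriptions.

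The members, lists and settings were chosen with earlier results of these data known. CPM used column totals, and log values log2(CPM + 1). Counts were tested in R 4.3.3 with edgeR 4.0.16 (filterByExpr, TMM factors, quasi-likelihood model of 5 group means without covariates, 2-sided, Benjamini-Hochberg, threshold 0.05). Standard errors are the log2 change divided by the square root of F. DESeq2 1.42.0, other scaling, no filter, a replicate block, fits of compared groups and leaving out each library were the alternatives. The edgeR and pattern steps were tested on simulated data. RefSeq EL10.2 genes were matched by position where each covered at least 0.5 of the other, which paired 16268 genes (75.4%). The table gives no product names, so no gene lists were counted, and no sequences were used. Named genes were the 10 with the widest mean range within groups among the 11 with the spread in all 5 groups, the neighbouring pairs, the 5 most abundant, the called, those nearest the limit and the most similar to the 3 widest of those 11. Other names, including the covarying and opposed pairs and the genes with separated levels, were chosen after their values were seen. Python 3.11.15 was used for the rest.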

Additional observations from a re-analysis of the deposited data

Results flagged for a closer look

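In each of the 5 groups of 25 genes described above, the highest and lowest library were set against the others by Dixon's 95% limit on the gap to the nearest library. Of all these groups 20% passed it. The 5% that the limit allows assumes normal values and genes not chosen by their spread, so it is no measure for this share. The genes were chosen by their spread, and the share is a description. The library stood high in 24 cases and low in 1.

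Bevul.6G221200 had such a library in 4 groups, at 360.1 CPM in replicate 1 before pretreatment, 417 CPM in ethanol replicate 1, 1103 CPM in frozen water replicate 4 and 923 CPM in frozen ethanol replicate 3. Bevul.2G103300 stood alone at 1283 CPM in water replicate 3, 510.0 CPM in frozen water replicate 5 and 668 CPM in frozen ethanol replicate 5. Bevul.4G117700 did so at 105.9 CPM in ethanol replicate 2, 22.9 CPM in frozen water replicate 2 and 23.51 CPM in frozen ethanol replicate 5. Bevul.8G114400 was high alone at 95.6 CPM in replicate 1 before pretreatment and 50.1 CPM in frozen ethanol replicate 5. Bevul.5G244000 was low alone at 7.17 CPM in frozen ethanol replicate 6.

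Bevul.6G052200 stood at 11.9 CPM in ethanol replicate 1 and 56.96 CPM in frozen ethanol replicate 6, and Bevul.6G220900 at 121.2 CPM in frozen water replicate 3. Bevul.7G088100 stood at 12.2 CPM in frozen water replicate 6 and 4.34 CPM in frozen ethanol replicate 1, and Bevul.7G088300 at 25.7 CPM in ethanol replicate 4. Bevul.9G239600 reached 10.5 CPM in replicate 5 before pretreatment and 88.98 CPM in frozen ethanol replicate 1, where Bevul.9G221200 reached 249 CPM. The last were Bevul.8G061600 at 17.6 CPM in replicate 6 and Bevul.9G024200 at 12.9 CPM in replicate 1 before pretreatment, and Bevul.8G149400 at 40.7 CPM in water replicate 2.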

How the results depend on the processing

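The number of genes follows the limits of the rule. There were 33 with a highest level of at least 20 CPM, 226 with a ratio of at least 4, 19 with a ratio of at least 16, and 146, 30 and 11 with the spread in at least 2, 4 and 5 groups, against 58. Leaving out 1 library gave 52 to 58. Separated levels were found in 15 genes with an interval of at least 1.5 and in 5 with at least 3, against 8, and in 8 or 9 without 1 library. Genes next to another numbered 2 if directly adjacent and 10 with starts within 100 kb, against 6.

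A fit of the compared groups only called 1 of the genes in water and 4 in ethanol against the state before, where the full fit called 2 and 1. DESeq2 called 1 between ethanol and water, against 0. Shares of all genes called are given for the full edgeR fit only, so the counts of alternatives have no such share beside them. Of the 11 genes with the spread in all groups, 0 were called in each of the comparisons with calls. Leaving out 1 library gave 1 to 2 calls in water, 1 to 3 in ethanol, 4 to 7 for freezing after water, 2 to 6 for freezing after ethanol, 1 to 2 between the frozen groups, and 0 for the other comparisons. Among single calls, 37 of 237 alternative fits lost the call and none changed sign; the cause was not tested.

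With the replicate number as a block, 2, 1, 0, 4, 4, 2 and 0 of the genes were called over the 7 comparisons, against 2, 1, 0, 4, 5, 2 and 0. Same-numbered libraries of different groups had correlations of -0.0382 to 0.0540 over all genes tested, so the numbers were not taken to pair the samples. Depth limits the low level: a count of 0 allows up to 0.888 CPM in ethanol replicate 4.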
